A study of Homo sapiens with 6 samples.

Results

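Methylation was examined at 5 developmental factor genes of HepG2 cells, MEIS2, MNX1, FOXB1, FOXF2 and the long noncoding RNA gene FOXF2-DT. The members are the regions in the authors' 3 lists of differentially methylated regions that overlap chr15:36889000-37102000 (MEIS2), chr7:156993000-157011000 (MNX1), chr15:60003000-60007000 (FOXB1) or chr6:1320000-1397000 (FOXF2 and FOXF2-DT), all on hg38. They are 23 of the 4344 listed regions, and after joining those that overlap by at least 1 bp across lists they are 13 of 3313 distinct regions. The genes were picked because earlier results of the same lists showed repeated gains there, so their differences are given as a description and without a test.

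HepG2 is an established human hepatocellular carcinoma line. The study compared HepG2 cells that carry a lentivirus overexpressing DNMT3A, with HepG2 cells that carry a control lentivirus and whose genotype is labelled WT, so that both groups were infected. Each group had 3 libraries of reduced representation bisulfite sequencing (RRBS), which cuts DNA at the MspI site CCGG and reads CpG-rich fragments. Each list compares 1 overexpressing library with the like-numbered control, and the 2 are called a pair here. The labels name neither the promoter that drives the introduced DNMT3A nor separate cultures behind the libraries. The lists hold no expression values, so neither the DNMT3A level nor HepG2 markers could be checked.

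DNMT3A is a de novo DNA methyltransferase, which adds methyl groups to CpG sites that carry none. The genes that encode developmental transcription factors often lie in CpG-rich stretches that stay largely unmethylated in normal tissues, where Polycomb complexes can keep the genes silent, and such stretches gain methylation in many cancers. MEIS2 and MNX1 encode homeodomain proteins. MEIS2 belongs to the TALE class, whose members bind DNA together with PBX and HOX proteins, and MNX1 acts in the development of motor neurons and the pancreas. FOXB1 and FOXF2 encode forkhead proteins. In the mouse, Foxb1 acts in the developing hypothalamus and Foxf2 in the mesenchyme of the gut and palate. FOXF2-DT is transcribed from beside FOXF2 in the opposite direction, as a noncoding RNA.

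Mapped reads per library ranged from 25764323 to 29924507. No list holds read numbers by region, so the depth of each level is unknown and levels are printed without an interval. Each level is the mean over the CpG sites of a region as a fraction from 0 to 1, and it averages many cells. A change in some cells and a partial change in all cells therefore cannot be told apart.

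Only at FOXB1 and in FOXF2-DT does a listed region of these genes meet one of their annotated promoter windows (RefSeq, GRCh38.p14, 250 bases before to 50 after a transcript start). The table holds 9 such windows for the 5 genes, and those of MEIS2, MNX1 and FOXF2 itself meet no listed region. Both sequences are shown because a listed region meets each of these windows. For FOXB1 the whole window is shown, although its listed regions begin only at base 134 or later. Capitals mark CG, read on the strand of the gene, 5′ to 3′.
FOXB1 window, chr15:60004061-60004360, plus strand: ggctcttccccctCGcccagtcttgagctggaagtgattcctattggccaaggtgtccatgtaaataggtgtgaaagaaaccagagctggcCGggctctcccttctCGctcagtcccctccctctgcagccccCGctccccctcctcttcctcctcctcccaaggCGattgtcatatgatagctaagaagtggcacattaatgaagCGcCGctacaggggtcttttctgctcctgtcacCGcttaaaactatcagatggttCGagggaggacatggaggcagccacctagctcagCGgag
FOXF2-DT, listed region of pair 2, chr6:1390709-1390777, minus strand: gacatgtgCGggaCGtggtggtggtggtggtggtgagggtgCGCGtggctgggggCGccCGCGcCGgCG

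The FOXB1 window held 10 CG and 1 CCGG, and 56.3% of the 34943 windows in the table held at least 10 CG. The window around the FOXF2-DT start that contains the shown stretch held 41 CG and 3 CCGG, and 6.70% of windows held at least 41 CG. CG occurred in 96.0% of windows and CCGG in 63.1% (both motifs read the same on either strand, and a CCGG contains a CG). The median window held 14 CG, so the FOXB1 start is below it and this FOXF2-DT start far above it.

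The shown sequences also bear on the number of sites the lists give. The FOXF2-DT stretch holds 9 whole CG, or 10 with the one that its edge cuts, while the list counts 19 CpG sites there. Of 117 listed regions of the whole series that lie inside a promoter window, 102 have more sites than CG, with a median of 2 sites per CG (a CG cut by the region's upper end counted). A site count of the lists is thus not a count of CG. Counting each strand apart would give 2 sites per CG if none was left out, and 33 of the 117 regions had exactly that. The lists do not show which sites were counted, so the other regions do not decide this. How the sites were counted is therefore not known.

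Of the 23 member regions, 20 were higher in the overexpressing library and 3 lower. There were 7 higher and 0 lower regions in pair 1, 5 and 3 in pair 2, and 8 and 0 in pair 3. Regions higher made up 82.1%, 81.7% and 81.1% of the whole lists of pairs 1, 2 and 3, and regions lower 17.9%, 18.3% and 18.9%. All 3 losses came from pair 2, so without that pair 0 lower regions were left. Since repeated gains were what these genes were picked for, nothing is read from these shares.

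Of the 13 distinct regions, 3 were higher in all 3 pairs, 1 each in MEIS2, FOXB1 and FOXF2-DT, against 7.97% of distinct regions in the whole series. A further 2 were higher in both pairs that listed them, 2 went in opposite directions, 5 were higher in 1 pair and 1 was lower in 1 pair. The regions higher in all 3 pairs had every overexpressing library above every control, as had 95.6% of the 272 regions that all 3 lists hold. Recurrence across pairs was part of the choice of these genes, so their share of recurrent gains is not read as a result.

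**Figure D1:**
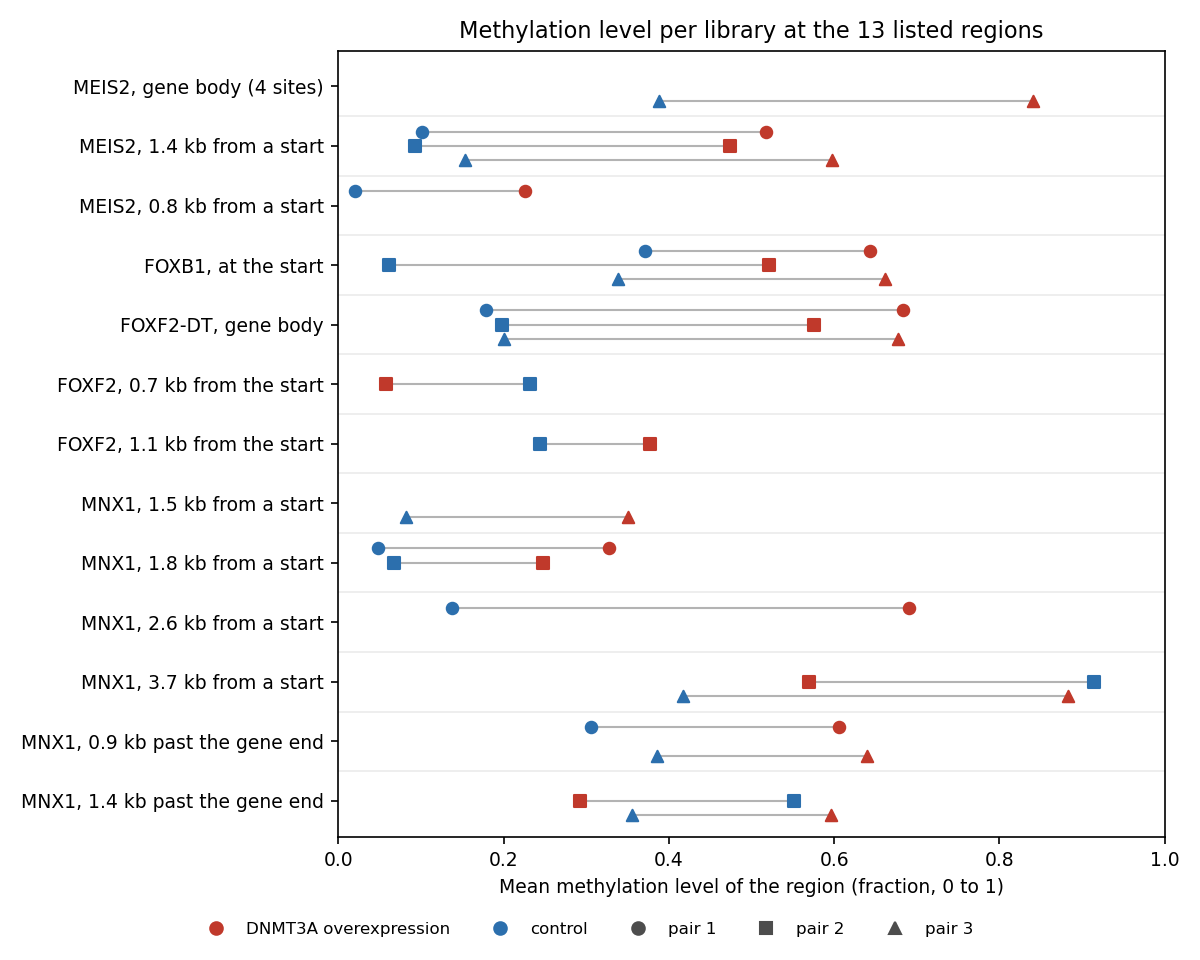
Mean methylation level (fraction, x axis) of every library at the 13 distinct regions (y axis, by gene and distance from a transcript start or the gene's end). Red symbols are DNMT3A-overexpressing and blue symbols control libraries, shapes mark the pair and a grey line joins the libraries of a pair; a missing symbol means that the pair's list does not hold the region. In 20 of the 23 lines the red symbol lies to the right, and the 3 lines with red to the left are all of pair 2.

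Of the 3 gains shared by all pairs, that in MEIS2 had the smallest spread between pairs. At chr15:37097086-37097279, a region of 194 bp inside the gene and 1417 bp downstream of the nearer of its 2 listed transcript starts, all pairs listed the same boundaries and 26 CpG sites. The level was 0.518, 0.474 and 0.598 in overexpressing libraries 1, 2 and 3, against 0.101, 0.0933 and 0.154 in control libraries 1, 2 and 3. The groups did not overlap, and library 3 was the highest in both groups. The mean was 0.530 ± 0.0627 in overexpressing libraries and 0.116 ± 0.0328 in controls (SD, n = 3 each), and the difference was 0.414 ± 0.0318 over the 3 pairs. Among the gains of its list, the difference held rank 147 of 1217 in pair 1, rank 197 of 1171 in pair 2 and rank 107 of 1158 in pair 3.

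The other MEIS2 regions were listed once each. A stretch 470 bp from the shared region, chr15:37097750-37097850, lies closer to the start, 846 bp from it. This stretch stood at 0.225 in overexpressing library 1 and 0.0207 in control library 1, the lowest control level of any member. Deep in the gene body, 52765 bp from a start, chr15:37045855-37045931 stood at 0.841 in overexpressing library 3 and 0.388 in control library 3. That region has 4 sites, the fewest that any listed region has. All 5 listings in MEIS2 were higher, 3 of them being the shared region. Regions higher made up 81.1% to 82.1% of the lists, and the gene was picked for repeated gains, so nothing is read from this. The 2 regions near the start began at a lower control level than the one in the gene body.

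At FOXB1 the listed regions covered the transcript start at position 60004311 in every pair, but with different boundaries. Pair 1 listed chr15:60004267-60004386 with 17 sites, pair 2 chr15:60004194-60004323 with 9 sites and pair 3 chr15:60004270-60004472 with 26 sites. In the sequence shown above, the region of pair 2 spans bases 134 to 263 with 6 of its CG, those of pairs 1 and 3 begin at bases 207 and 210, and both run past its end.

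The FOXB1 level was 0.643, 0.521 and 0.661 in overexpressing libraries 1, 2 and 3, against 0.371, 0.0615 and 0.338 in control libraries 1, 2 and 3. Control library 2 was far below the other controls, while the overexpressing libraries lay closer together, and the groups did not overlap. The mean was 0.608 ± 0.0764 in overexpressing libraries and 0.257 ± 0.170 in controls (SD, n = 3 each), with a difference of 0.352 ± 0.0968 over pairs. The pair that stands apart is also the one whose region reaches furthest upstream and holds the fewest sites. Its part in the low control level was not tested, since no list gives levels site by site.

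The largest mean gain of the 3 shared regions of these genes was in FOXF2-DT. At chr6:1326598-1326681, a region of 84 bp with 10 sites, the level was 0.684, 0.576 and 0.677 in overexpressing libraries 1, 2 and 3, against 0.179, 0.197 and 0.20 in control libraries 1, 2 and 3. The controls lay within a narrow range, overexpressing library 2 was lower than the other overexpressing libraries, and the groups did not overlap. The difference was 0.453 ± 0.0665 over pairs, and it held rank 57 of 1217 gains in pair 1, 206 of 1171 in pair 2 and 67 of 1158 in pair 3. The region lies 3123 bp from the end of FOXF2-DT that is far from FOXF2, and 62895 bp from the FOXF2 start, so it is not near that gene's promoter.

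Near the FOXF2 start only pair 2 listed regions, and they went in opposite directions within 1 pair. Both lie inside FOXF2 and inside the overlapping FOXF2-DT. At chr6:1390312-1390413, 736 bp downstream of the FOXF2 start, the level was 0.0573 in overexpressing library 2 and 0.232 in control library 2, a difference of -0.174. At chr6:1390709-1390777, 295 bp further on, it was 0.377 in overexpressing library 2 and 0.244 in control library 2, a difference of 0.133. The gain is the FOXF2-DT stretch printed above, which lies at -238 to -170 bp from 1 of the 3 listed starts of that gene. These were the smallest differences of any member, and the gain ranked 1081 of 1171 in its list.

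MNX1 had the most regions, 6 distinct ones from 10 listings, and none that all 3 pairs held. Of these listings 8 were higher and 2 lower. MNX1 is read from the minus strand, and its regions fell into the inner part of the gene and the stretch past its end. The antisense gene MNX1-AS2 overlaps the inner part, and the region at chr7:157006735-157006882 lies in both genes.

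Nearest to a start, the gains began from low levels. At chr7:157007620-157007678, 1757 bp downstream of the nearer of 2 listed starts and with 7 sites, the level was 0.328 and 0.247 in overexpressing libraries 1 and 2, against 0.0483 and 0.0672 in control libraries 1 and 2. Pair 3 listed a separate region 108 bp away, chr7:157007787-157007897, at 0.350 in the overexpressing library and 0.0816 in the control. All pairs thus had a gain in this short stretch of MNX1, although the regions of pair 3 and of the others do not overlap. At chr7:157006735-157006882 only pair 1 listed a gain, with 0.690 in the overexpressing library and 0.138 in the control. This difference, 0.553, was the largest of any member and ranked 36 of 1217 in its list, but it rests on 4 sites in 148 bp.

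Past the gene's end, 912 bp from it, chr7:157003816-157003942 was listed higher in pairs 1 and 3. The level was 0.606 and 0.640 in overexpressing libraries 1 and 3, against 0.306 and 0.385 in control libraries 1 and 3. Both overexpressing libraries lay above both controls, with differences of 0.30 and 0.255. A region called higher in both pairs is likely to show this, and the share over all such regions was not counted. The controls of this region stood above those of the 3 MNX1 regions nearest to a start.

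At the other 2 MNX1 regions that recurred, the pairs went in opposite directions. At chr7:157005477-157005709, inside the gene, the level was 0.569 in overexpressing library 2 and 0.915 in control library 2, whereas in pair 3 it was 0.883 in overexpressing library 3 and 0.417 in control library 3. The differences were -0.345 and 0.467. The 2 controls were further apart than the libraries of either pair, and the highest level was that of a control. The region of pair 3, chr7:157005478-157005694, lies within that of pair 2, but it has 30 sites against 63 in pair 2. Per 100 bp that is 13.8 sites in pair 3 and 27.0 in pair 2, so the lists did not average the same set of sites.

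At chr7:157003229-157003452, 1402 bp past the gene's end, the level was 0.293 in overexpressing library 2 and 0.552 in control library 2, against 0.597 in overexpressing library 3 and 0.356 in control library 3. Here the site counts were close, 28 in pair 2 and 25 in pair 3, and the differences were -0.259 and 0.241. Of the 4 MNX1 regions that at least 2 pairs listed, 2 went in opposite directions, against 8.02% of the 723 such regions in the whole series. The 2 differences of the region inside the gene were 0.812 apart, rank 6 of all 58 regions with opposite directions, and those of the region past its end 0.50 apart, rank 24, where the median was 0.433. Without pair 2 or without pair 3, 0 regions with opposite directions were left.

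In the authors' deposited table of pair 2, the loss inside MNX1 has an area score of -742, rank 2 by size among its 262 losses. By difference that loss ranks only 93 of 262, while its 63 sites rank 5. The authors' deposited table of pair 3 gives the gain there a score of 305, rank 35 of 1158. By the same score the shared MEIS2 region ranks 42 of 1217, 41 of 1171 and 43 of 1158 gains in the authors' deposited table of pairs 1, 2 and 3. The MNX1 gain with 4 sites, the largest difference of any member, has rank 958 of 1217 by score in the authors' deposited table of pair 1.

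**Figure D2:**
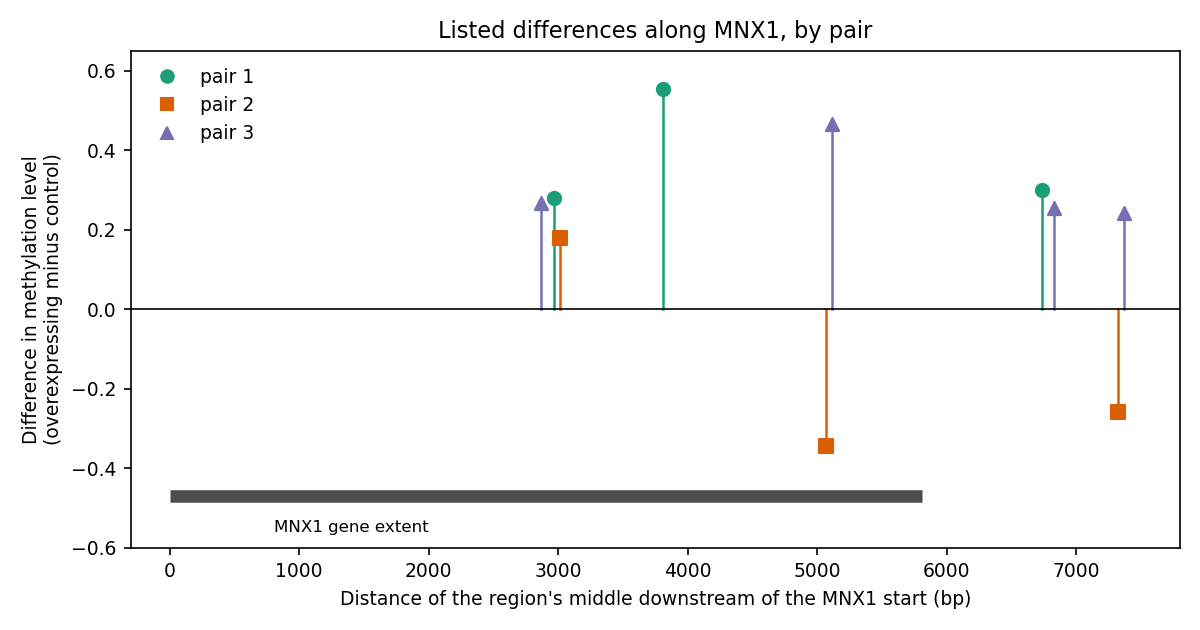
Difference in methylation level (overexpressing minus control, y axis) of each MNX1 listing against the distance of the region's middle downstream of the gene's outer start (bp, x axis), with the gene's extent as a grey bar. Colours and shapes mark the pair, and symbols are shifted by 45 bp per pair so that they do not hide each other. Pairs 1 and 3 lie above 0 throughout, while pair 2 has 1 gain of 0.180 and losses of -0.345 and -0.259.

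The member gains had a larger median difference than the gains of the whole series. Over the 20 gains the median level was 0.597 in overexpressing libraries and 0.188 in controls, with a median difference of 0.351. Over all 3546 gains of the lists the median level was 0.512 in overexpressing libraries and 0.195 in controls, with a median difference of 0.265. By pair, the members' median control level was 0.138, 0.0933 and 0.347 in pairs 1, 2 and 3, and that of all gains 0.184, 0.192 and 0.209, so the members lay below all gains in pairs 1 and 2 and above them in pair 3. The members' median was 15.5 sites and 12.4 sites per 100 bp, against 12 sites and 10.8 per 100 bp over all gains. The choice of genes with repeated gains can favour large differences, so these medians only describe the members.

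The 3 losses had 22, 28 and 63 sites. Their control levels were 0.232 near the FOXF2 start and 0.552 and 0.915 at MNX1, against a median of 0.583 over all 798 losses.

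**Figure D3:**
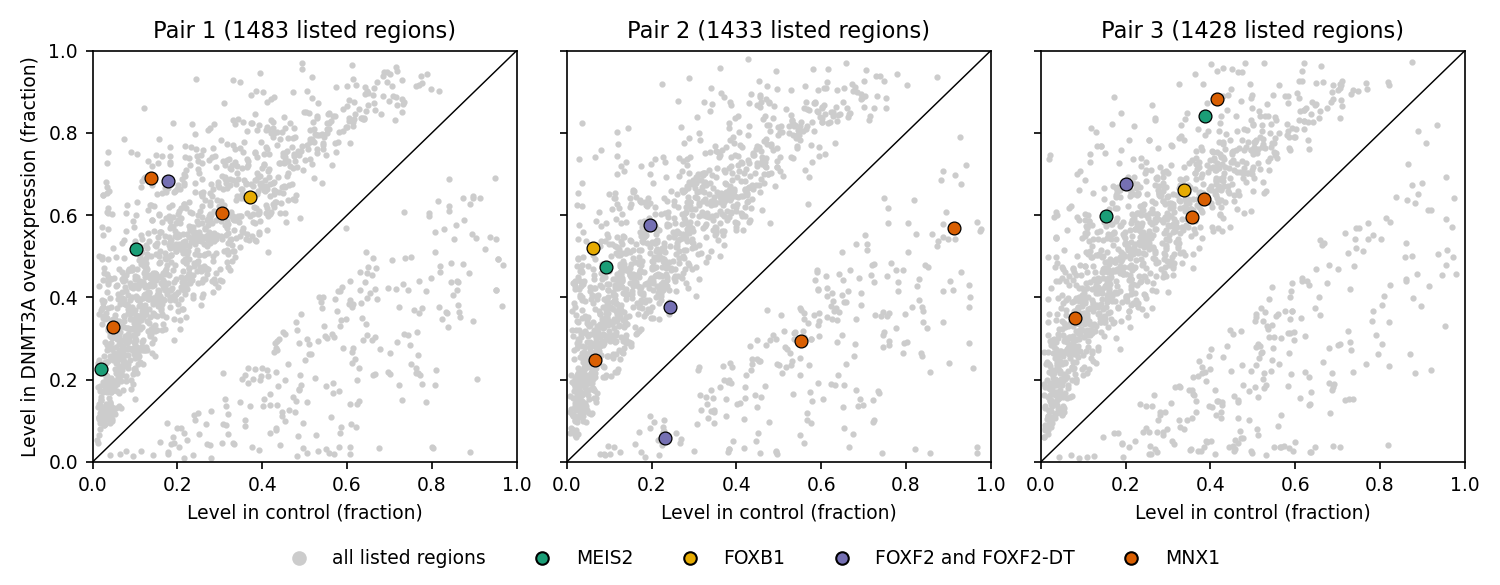
Level in the overexpressing library (fraction, y axis) against level in the control (fraction, x axis) for every listed region of each pair, with the diagonal of equal levels. Grey points are all 1483, 1433 and 1428 listed regions of pairs 1, 2 and 3, and coloured points the members by gene. All members of pairs 1 and 3 lie above the diagonal, and 3 of the 8 in pair 2 lie below it.

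Beyond the windows, the nearest listed regions went in both directions. Just outside the MNX1 window, inside the neighbouring MNX1-AS1, chr7:157012693-157012946 stood at 0.0234 in overexpressing library 3 and 0.636 in control library 3, a loss in a pair that had only gains within the window. Just inside that edge the nearest member is the pair 3 gain of 0.268 described above. Outside the MEIS2 window chr15:37102834-37102971 stood at 0.647 in overexpressing library 2 and 0.415 in control library 2, while the member nearest that edge is the pair 1 gain of 0.205. Outside the FOXF2 window chr6:1317350-1317512 stood at 0.588 in overexpressing library 3 and 0.271 in control library 3, and the member nearest to either edge of that window is the pair 2 gain of 0.133. The region nearest to the FOXB1 window was 7936 bp away and lower in pair 3, at 0.303 in the overexpressing library and 0.549 in the control, and the nearest inside is that gene's pair 2 gain of 0.459.

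Regions elsewhere with levels most like those of the shared members were sought among 232 others that all 3 pairs listed within 1 kb of a gene, by the root mean square distance over the 6 levels. Nearest to the MEIS2 region was one in IQSEC1, which encodes an exchange factor for ARF proteins, at a distance of 0.0307, and then one in ZFHX3, a zinc finger homeobox gene, at 0.0347. Nearest to the FOXF2-DT region were those in KCNQ1, a potassium channel gene, at 0.0408, and in ECE1, whose product cleaves big endothelin to its active form, at 0.0427. The FOXB1 region had no such close match, since its nearest was in NFIX, a nuclear factor I gene, at 0.0916, followed by TTYH3 at 0.100. The FOXB1 levels come from regions with different boundaries in each pair, and the part of this in the distances was not tested.

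Related genes were counted from lists chosen by family, or for MNX1 from homeobox genes near it in class. A gene was counted when a listed region lay within 1 kb of it. Over all 38386 protein-coding and long noncoding RNA genes, 6.13% had a listed region, 1.4% a region higher in at least 2 pairs and 0.122% a region lower in at least 2 pairs. Of the 2354 genes with a listed region, 1875 had a higher one and 633 a lower one, with 154 in both counts. Mostly higher regions are thus usual among listed genes. These shares are not adjusted for how many CpG-rich fragments a gene holds, which RRBS favours, so a higher share in a family is not read as particular to it. The family lists also include the member genes, which were picked for repeated gains. FOXB1, MEIS2 and MNX1 thus enter the counts of genes higher in at least 2 pairs through that choice.

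Of 51 forkhead box genes, 10 had a listed region, 8 of them a higher one and 3 a lower one, and FOXF2 was in both counts. Higher in at least 2 pairs were 2, FOXB1 and FOXK1. FOXK1, whose forkhead protein has roles in metabolism, was higher in all 3 pairs at chr7:4725340-4725752, with 0.406, 0.370 and 0.340 in overexpressing libraries 1, 2 and 3, against 0.0835, 0.0925 and 0.0705 in control libraries 1, 2 and 3. Its groups did not overlap, and a second FOXK1 region was higher in pairs 1 and 2. FOXF1, the close relative of FOXF2, was higher in pair 1 alone, at 0.265 in the overexpressing library and 0.141 in the control. Only lower regions were listed for FOXI3, with 2 in pair 1, and for FOXP2, with 1 in pair 2. Of 13 long noncoding RNA genes named after forkhead genes, FOXF2-DT alone had a listed region.

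Of 18 TALE homeobox genes, 4 had a listed region, each of them higher and 0 lower, and MEIS2 and IRX3 were higher in at least 2 pairs. At IRX3, of the Iroquois group, the shared gain was small, with 0.130 and 0.115 in overexpressing libraries 1 and 3, against 0.0544 and 0.0502 in control libraries 1 and 3. PBX3, which encodes a partner of MEIS proteins, was higher in pair 3, at 0.895 in the overexpressing library and 0.732 in the control, and PKNOX2 had 3 regions listed once each, all higher. A further IRX3 region was higher in pair 2, at 0.144 in the overexpressing library and 0.0421 in the control. In all of these IRX3 listings the overexpressing level stayed below the lowest one of the shared MEIS2 region.

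The list for MNX1 is a chosen set of homeobox genes and not 1 family. It holds MNX1, GBX1, GBX2, EN1, EN2, EVX1, EVX2, NOTO, VAX1, VAX2, EMX1, EMX2, PDX1, CDX1, CDX2, CDX4, GSX1 and GSX2. Of these 18 genes, 5 had a listed region, 4 with a higher and 2 with a lower one, and MNX1 was in both counts. MNX1 and EMX1 were the 2 with a region higher in at least 2 pairs. EMX1, a factor of the developing forebrain, was higher in all 3 pairs at chr2:72924553-72924707, with 0.669, 0.552 and 0.489 in overexpressing libraries 1, 2 and 3, against 0.454, 0.369 and 0.308 in control libraries 1, 2 and 3. All overexpressing libraries of EMX1 lay above all controls. EMX2 was lower in pair 1, by -0.152, and GBX2 and GSX1 were each higher in 1 pair.

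**Figure D4:**
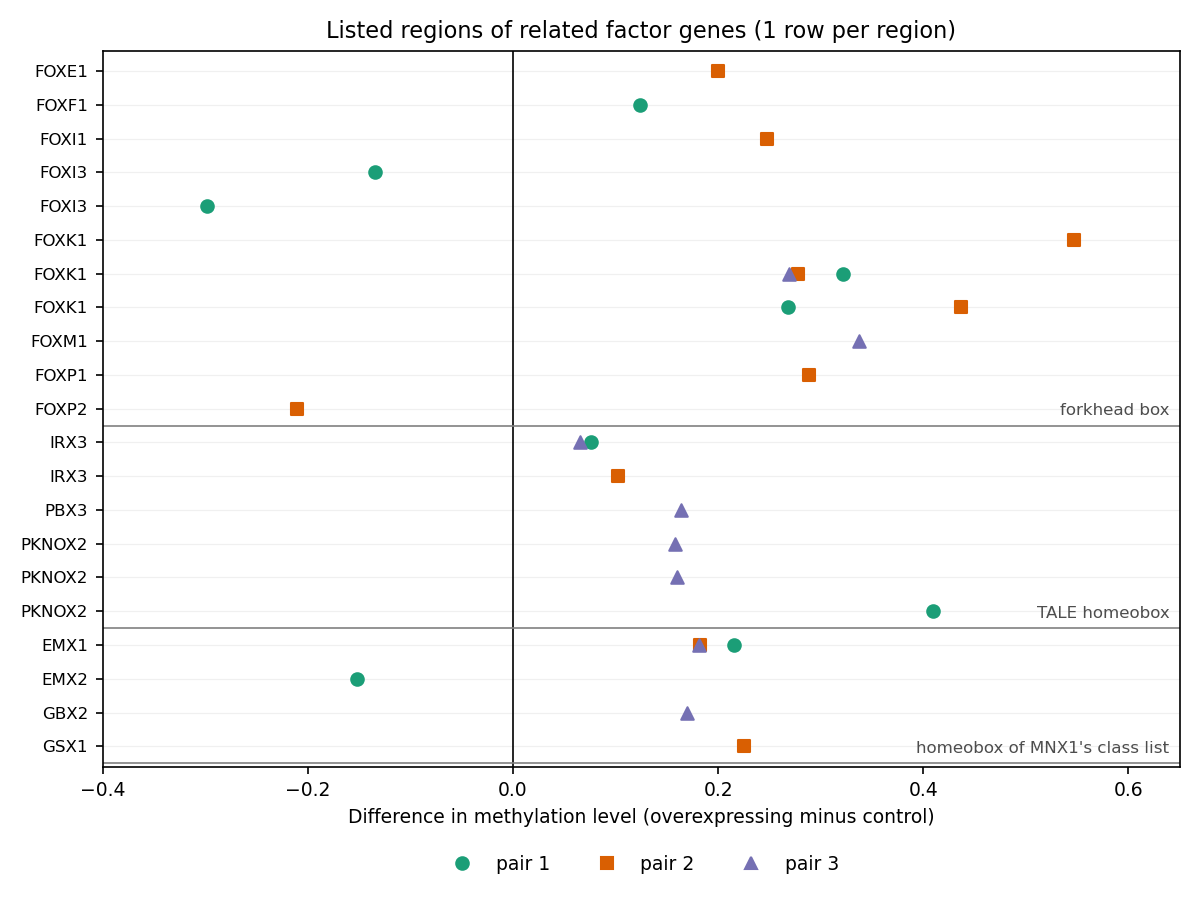
Difference in methylation level (overexpressing minus control, x axis) at each listed region within 1 kb of a forkhead or homeobox gene of the 3 family lists other than the members (y axis, 1 row per distinct region). Colours and shapes mark the pair. Only the second FOXK1 row and EMX1 have 3 symbols, and the rows left of 0 are FOXI3, FOXP2 and EMX2.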

How the data were processed

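RRBS data of 6 HepG2 libraries, 3 with DNMT3A overexpression and 3 controls, were grouped and numbered by their titles. Per the file headers, each list of the authors compares the libraries of the same number and gives for each region a mean methylation fraction per library, the number of CpG sites as a count, and a signed difference and area score. The deposited mapping summary holds read counts and percent values. Coordinates are hg38, which the submitters' processing notes name; no label, header or note names the aligner, the caller or its thresholds. Because a region is listed only when called, listed differences tend to be larger than a fresh measurement would give.

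Differences were recomputed as overexpressing minus control and equalled the deposited ones within 1e-12. Overlapping regions were merged with Python 3.11.15 and pandas 2.3.3, in a step tested on simulated regions. Regions of 1 pair that fell into the same merged region would be averaged with sites as weights, which no member needed. Genes and promoter windows are those of RefSeq GRCh38.p14, whose gene table has no exons. The members and the family lists were chosen with earlier results of these data known. Named were all members, the 2 nearest matches of each shared region and the genes of the family lists. No test was run, so the replicate numbers were not used as a block. Alternatives covered averaging, merging, site and difference minimums, windows, and leaving out each pair.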

Additional observations from a re-analysis of the deposited data

How the results depend on the processing

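No paired analysis was possible because no result here comes from a test: the members were chosen from these contrasts. The differences and their SD are themselves taken within pairs. Leaving out 1 pair at a time gave 12 to 15 higher and 0 to 3 lower listings, 3 to 4 regions higher in at least 2 pairs, 4 to 5 regions in every pair used, and 0 to 2 regions with opposite directions. Fewer pairs hold fewer listings by construction, and the lower ones left with pair 2. With gene extents plus 1 kb as windows, 1 region with opposite directions was left, since the other lies 1402 bp past MNX1. Merging only at an overlap of 50% of the shorter region split FOXB1, leaving 2 regions in all 3 pairs and a FOXB1 difference of 0.298 over pairs 1 and 3. Of all values under alternatives, 90 stayed within 1.5 times the main count or 1 SD and 8 moved further. The 90 include plain and length-weighted averages, which could not differ since no member needed averaging. Leaving out 1 of 3 pairs also cannot shift a mean difference by 1 SD. The count of 90 is therefore not read as a measure of stability. Unknown depth limits every level.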
